A study of Mus musculus with 33 samples.

Results

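The circadian clock genes described here were 10 rows of the deposited expression table, out of 21671 genes: Arntl (which encodes BMAL1), Clock, Npas2, Per1, Per2, Per3, Cry1, Cry2, Nr1d1 and Dbp. They were taken by gene symbol, and all 10 were found. The series measured total RNA from 33 livers and liver tumours of C57BL/6 mice to ask how MYC and β-catenin act in the liver. In the short-term arm, mice of 6 to 8 weeks were injected with AAV8-TBG-CRE, a virus that carries Cre recombinase behind a hepatocyte promoter, and their livers were taken after 4 days. These 20 livers came in groups of 5: WT, beta-cat Ex3 (a β-catenin allele whose exon 3 Cre removes, here Ex3), R26-lslMYC (a MYC transgene that Cre switches on, here MYC), and R26-lslMYC/beta-cat Ex3 (here MYC+Ex3). All of them, wild type included, had received the virus. In the tumour arm, 3 nodules came from Albeta-CreERT2/R26-lslMYC mice and 3 from mice that also carried beta-catEx3, with Cre driven by an albumin promoter. Their comparators were 7 WT livers taken 4 days after 4-hydroxytamoxifen (4-OHT), the drug that activates CreERT2. The labels give no age for the tumour-bearing or 4-OHT mice, and no treatment for the nodules. The time of day at which any animal was sampled is not labelled.

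The clock is a transcriptional loop that runs in nearly every cell and is strong in hepatocytes. CLOCK, or its relative NPAS2, pairs with BMAL1 and switches on the Per and Cry genes, Nr1d1 and Dbp through E-box sequences, and the PER and CRY proteins then block that pair. NR1D1 (REV-ERBα) represses Arntl, Clock and Npas2, which the ROR receptors activate, so in liver these 3 genes peak at the opposite time of day to Dbp and Per3. DBP and its relatives TEF and HLF act through D-box sequences on genes such as Per1, Per2 and Per3. In liver the daily rhythms of these mRNAs are known to be large.

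Sequences of the kind this loop uses were sought in the promoters. RefSeq windows of 300 bases (250 before a transcription start, 50 after) were found for 9 of the 10 genes, 13 windows in all, in build GRCm38.p6, which is not the build of the expression data. Both strands were searched for the E-box CACGTG, for the D-box forms TTATGTAA and TTATGCAA, and for AGGTCA, the core letters read by ROR and REV-ERB receptors. In order, these letters were present in 7.15%, 0.938%, 0.743% and 16.3% of all 32851 windows. Per1 held an E-box 166 bases, an AGGTCA (as its complement TGACCT) 137 bases and a D-box 24 bases before its start. Per3 held TTATGTAA at 2 places, the nearer 158 bases before its start, and Cry1 held 1 E-box 60 bases before. In 1 Arntl window AGGTCA began 32 bases after the start, and in 1 Clock window its complement lay 119 bases before. The other 4 genes with a window (Npas2, Cry2, Nr1d1 and Dbp) held none of these letters there, which says nothing of sites outside the windows. Per1, Per3 and Cry1 are printed over the 250 bases before the start and Arntl over bases 21 to 50 after it, 5′ to 3′ on the gene's strand, with these motifs in capitals; a match describes letters, not binding.
Per1, chr11:69098699-69098948, plus strand: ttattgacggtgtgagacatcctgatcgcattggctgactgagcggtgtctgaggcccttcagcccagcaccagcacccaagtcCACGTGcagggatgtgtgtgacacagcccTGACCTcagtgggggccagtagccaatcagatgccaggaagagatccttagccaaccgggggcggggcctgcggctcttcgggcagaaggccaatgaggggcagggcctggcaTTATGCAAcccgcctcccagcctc
Per3, chr4:151044666-151044915, minus strand: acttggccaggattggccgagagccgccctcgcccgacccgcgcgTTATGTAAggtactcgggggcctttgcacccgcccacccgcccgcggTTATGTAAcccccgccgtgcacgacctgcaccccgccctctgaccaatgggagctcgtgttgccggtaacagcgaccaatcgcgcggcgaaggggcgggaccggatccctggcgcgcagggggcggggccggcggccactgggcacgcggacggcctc
Cry1, chr10:85185055-85185304, minus strand: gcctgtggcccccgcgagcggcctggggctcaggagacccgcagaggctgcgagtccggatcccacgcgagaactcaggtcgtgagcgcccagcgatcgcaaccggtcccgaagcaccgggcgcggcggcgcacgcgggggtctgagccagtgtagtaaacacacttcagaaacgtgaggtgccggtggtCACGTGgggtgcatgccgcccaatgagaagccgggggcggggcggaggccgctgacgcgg
Arntl, chr7:113207531-113207560, plus strand: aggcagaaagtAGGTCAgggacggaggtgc

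Depth in the gene table was 3.75 to 7.31 M reads per short-term library and 6.65 to 9.82 M per library of the tumour arm. RPKM values (reads normalised to gene length and to library total) of the 2 arms are on different scales, so levels are compared within an arm. All 7 hepatocyte markers in the table were expressed in every group, with sums of 999 to 1723 RPKM in the short-term livers and of 169 to 301 RPKM in the tumour arm. By Xist and Ddx3y, each short-term group held 2 to 4 males among its 5 animals, 4 of the 7 4-OHT livers were male, and so were 5 of the 6 tumours. In 2 short-term libraries, MYC replicate 5 and MYC+Ex3 replicate 3, both genes reached an RPKM of 1. The epidermal keratins Krt5, Krt14 and Krt17 summed to 3.95 to 23.8 RPKM in 10 short-term libraries and to at most 0.398 in the other 10. Of the libraries with keratin, 1 was a MYC liver and each other genotype had 3. In the bulk tissue, fewer cells that express a gene and less of its RNA per cell cannot be told apart.

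The activating arm of the clock was led by Clock. Its mRNA was the most abundant of the 10 in the short-term livers, at a median of 40.9 RPKM (range 18.5 to 53.6, n = 20), while Npas2 was the least abundant at 0.715 RPKM (0.0566 to 3.77, from 1 to 71 reads). Arntl lay between them and varied far more than Clock from animal to animal. In wild-type livers Arntl was at 8.00, 1.44, 4.47, 7.41 and 7.76 RPKM, and in Ex3 livers at 11.1, 11.8, 2.39, 3.93 and 0.478 RPKM, replicates 1 to 5 in each case. In MYC livers it was at 8.13, 3.85, 6.74, 2.52 and 2.04 RPKM, and in MYC+Ex3 livers at 7.63, 8.65, 2.11, 0.825 and 4.30 RPKM. High and low livers were thus present in all 4 groups, and in each of the 5 pairs of groups compared the values overlapped for this gene as for the other 9. Among all genes the groups did not overlap for 1.59% between Ex3 and wild type, 13.3% between MYC and wild type, 17.2% between MYC+Ex3 and wild type, 0.679% between MYC+Ex3 and MYC, and 20.3% between MYC+Ex3 and Ex3.

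The output gene Dbp, a transcription factor of the D-box family, varied the most. It was at 0.664, 38.5, 15, 2.08 and 2.18 RPKM in wild-type livers and at 1.77, 2.27, 37.4, 24.9 and 47.0 RPKM in Ex3 livers. It was at 0.907, 17.1, 1.36, 0.787 and 28.4 RPKM in MYC livers and at 0.635, 0.814, 9.22, 29.0 and 10.5 RPKM in MYC+Ex3 livers. Its highest liver exceeded its lowest by 74.0-fold, with 6 to 333 reads per library, and by 58.0-fold among the wild-type livers alone. Across the 20 livers the same ratio was 66.6-fold for Npas2, 34.0-fold for Per3, 24.8-fold for Arntl, 18.3-fold for Per2 and 15.2-fold for Per1. It was 9.41-fold for Nr1d1, 6.51-fold for Cry1, 4.84-fold for Cry2 and 2.90-fold for Clock. After group means were removed, the residual standard deviation of log2(RPKM + 1) placed the 10 genes between the 85.7th and 99.8th percentile of the 13688 genes tested (median 96.1), with Dbp, Per3 and Arntl highest.

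**Figure D1:**
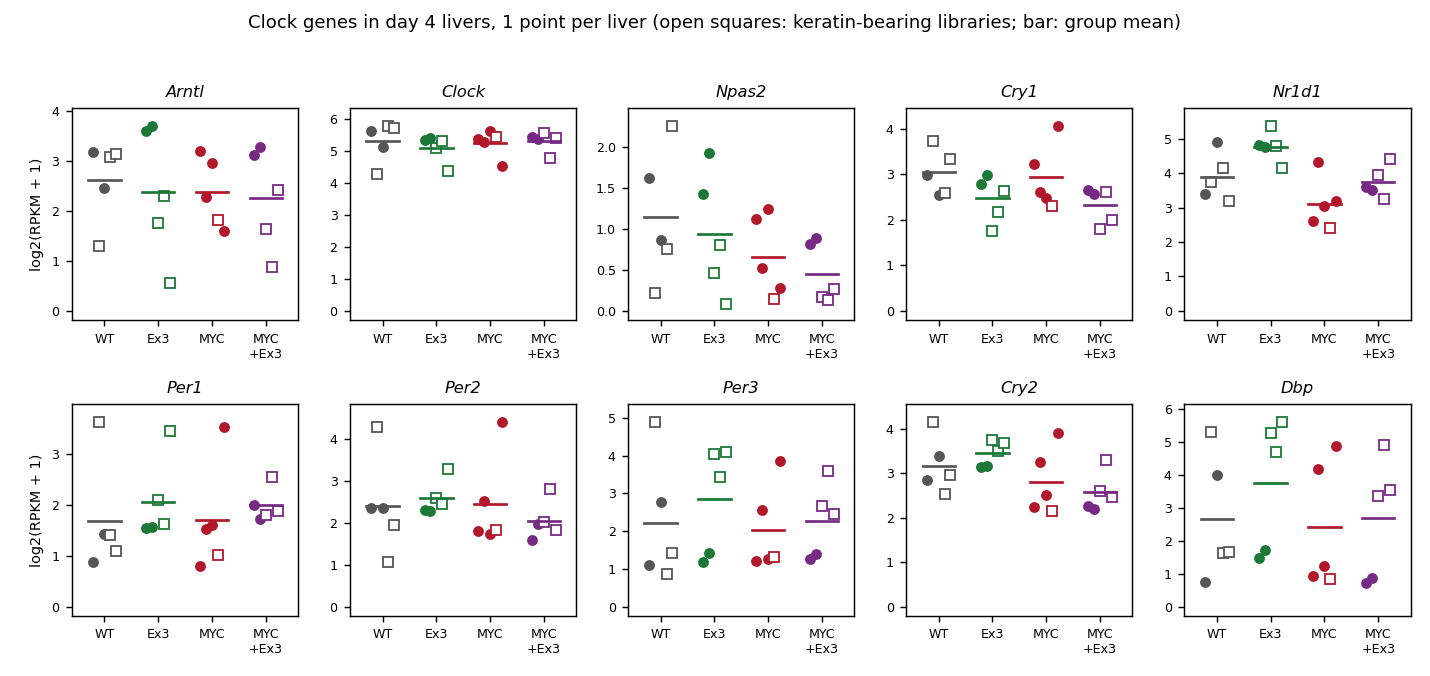
Level of each clock gene as log2(RPKM + 1), vertical axis, in the 20 short-term livers by group, horizontal axis. Each point is 1 liver, open squares are keratin-bearing libraries and bars are group means; the groups overlap for all 10 genes, and Dbp and Per3 divide into high and low livers within every group.

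Dbp divided the short-term livers into 10 with 0.635 to 2.27 RPKM and 10 with 9.22 to 47.0 RPKM, with no liver between. The low set held 3 wild-type, 2 Ex3, 3 MYC and 2 MYC+Ex3 livers and the high set 2, 3, 2 and 3, so the division ran through every genotype. Per3, a period gene with D-boxes in its promoter, divided the same livers, at 0.834 to 1.68 RPKM where Dbp was low and 4.49 to 28.4 RPKM where Dbp was high. Arntl ran the other way, at 2.52 to 11.8 RPKM (median 7.88) in the low-Dbp livers and 0.478 to 4.47 RPKM (median 2.25) in the high-Dbp livers. The ratio of Dbp to Arntl therefore spanned 0.0830 to 98.3 over the 20 livers, and its range within each group was 0.0830 to 26.8 for wild type, 0.160 to 98.3 for Ex3, 0.112 to 13.9 for MYC and 0.0832 to 35.1 for MYC+Ex3. MYC replicate 4 stood apart, with low Dbp (0.787 RPKM) and low Arntl (2.52 RPKM). The sets were defined from Dbp itself, so these ranges are a description without a test.

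**Figure D2:**
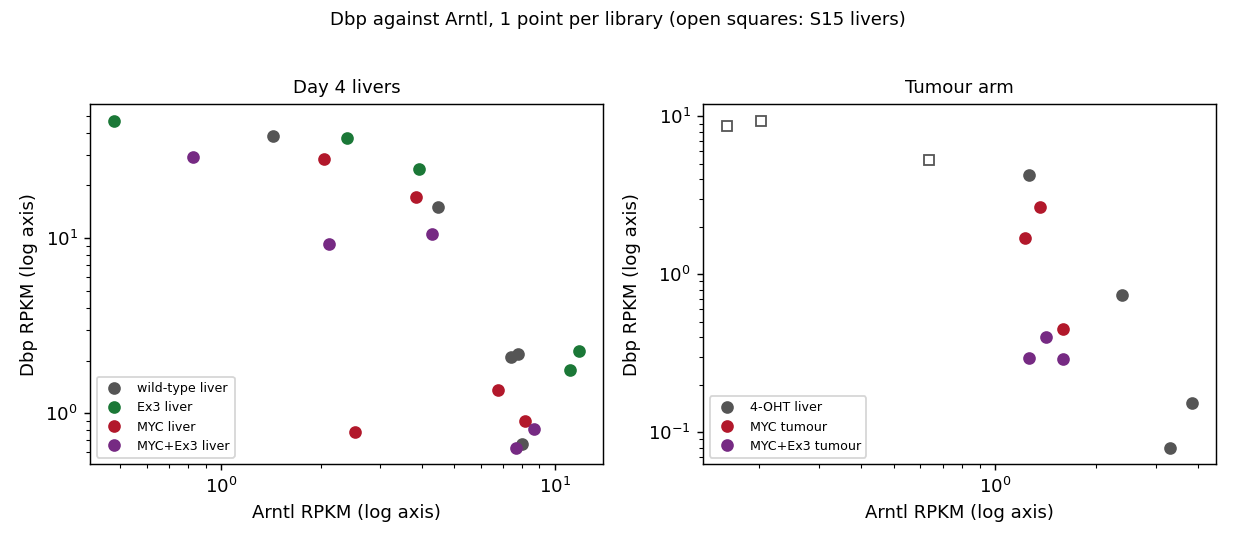
Dbp RPKM, vertical axis, against Arntl RPKM, horizontal axis, both on log axes, with 1 point per library coloured by group; the left panel shows the short-term livers and the right panel the tumour arm, where open squares are the 4-OHT livers numbered S15. In the left panel 10 livers lie at a Dbp of 0.635 to 2.27 RPKM and 10 at 9.22 to 47.0 RPKM, with all 4 groups in both.

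The division went together with other features of the livers, whose part in it was not tested. Of the low-Dbp livers 7 of 10 were keratin-free and 8 of 10 male, against 3 of 10 and 4 of 10 of the high-Dbp livers. The titles number each animal, and the 6 livers that share the most frequent leading digits, which came from all 4 groups, were all low in Dbp, at 0.635 to 2.27 RPKM, and high in Arntl, at 7.63 to 11.8 RPKM. These 6 were also all male and keratin-free. The labels do not say what the numbers stand for. Among the 4 keratin-free livers of other numbers, Dbp ran from 1.36 to 28.4 RPKM, so high and low Dbp both occurred without keratin.

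Because the livers fell into separate sets, the relation of Arntl to the other 9 genes was computed within each. In the 10 high-Dbp livers Arntl rose and fell with its partner Clock, with Pearson r = 0.72 (permutation p = 0.0209, adjusted p = 0.0418) and Spearman rho = 0.68 (permutation p = 0.0344, adjusted p = 0.0476). With Npas2 r was 0.77 (permutation p = 0.00978, adjusted p = 0.0293) and rho 0.83 (permutation p = 0.00477, adjusted p = 0.0286). Arntl ran against Per1, a period gene that hormone signals can also induce, with r = -0.77 (permutation p = 0.0133, adjusted p = 0.0341) and rho = -0.79 (permutation p = 0.00872, adjusted p = 0.0314). Without the 2 livers farthest from the median of Arntl, r was 0.64 with Clock, 0.69 with Npas2 and -0.81 with Per1. The adjusted p of r for Clock, Npas2 and Per1 was under 0.05 only because relations over other livers shared the adjustment, as given below.

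Under the same shared adjustment, further relations passed by 1 measure only. In the high-Dbp livers Per2 (rho = -0.75), Per3 (-0.70), Nr1d1 (0.71) and Dbp (-0.71) passed by rank (adjusted permutation p of 0.0392 for Per2 and 0.0476 for the others) but not by Pearson r, which was -0.51, -0.65, 0.56 and -0.65 (adjusted permutation p = 0.163, 0.0685, 0.132 and 0.0694). In the 10 low-Dbp livers Nr1d1, the repressor of Arntl, passed by r (0.74, permutation p = 0.0043, adjusted p = 0.0137; 0.64 without the 2 farthest livers) but not by rank (rho = 0.59, permutation p = 0.0808, adjusted p = 0.145). There r was -0.11 with Clock and 0.01 with Per3. Cry1 and Cry2 passed by neither measure in either set, nor did any gene but Nr1d1 in the low-Dbp livers. Each set has 2 or 3 livers per genotype and group means were kept. The permutation p-values (two-sided, 100000 resamples) were adjusted over 18 relations, the 9 of the set and 9 over the 4-OHT livers. The latter are not given because those livers also fall into separate sets. Their permutation p for r was as low as 0.000397, which lowers the adjusted p of r in the high-Dbp and low-Dbp livers. The adjusted p of r is thus no strict test of either set alone. In the high-Dbp livers that of Clock, Npas2 and Per1 was under 0.05 only with the 4-OHT relations included. Low and high sets were defined by Dbp after seeing the data, so the r of Dbp and Per3 within them is over a restricted range.

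**Figure D3:**
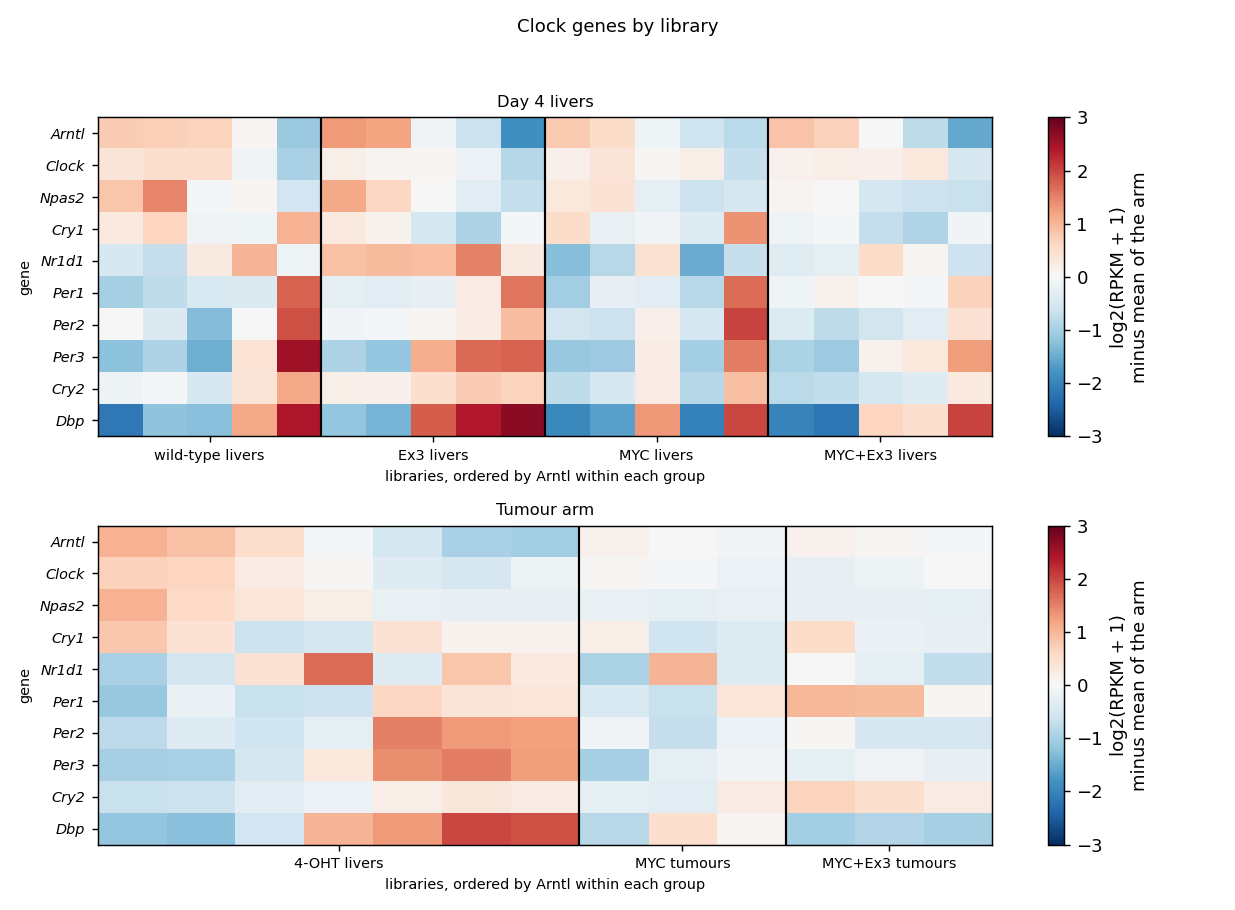
Difference of each gene's log2(RPKM + 1) from its mean over the arm, as colour from -3 (blue) to 3 (red), for the 10 genes (rows) and the libraries (columns, ordered by Arntl within each group). Where Dbp and Per3 are red Arntl is mostly blue, and the other way round, within every group of livers; MYC replicate 4 is low in both Dbp and Arntl.

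Few of these genes passed a test between short-term genotypes, in which the livers of each group varied as described. Against wild type, Ex3 livers had 0 of 10 clock genes past an adjusted p of 0.05 (limma), where 0.132% of all 13688 genes passed. MYC livers had 0 of 10, where 22.3% of all genes passed, and MYC+Ex3 livers 0 of 10, where 24.1% passed. Set against MYC livers, MYC+Ex3 livers had 0 of 10 (0.19% of all genes), and the test of whether MYC and Ex3 act other than additively gave 0 of 10 (0.0% of all genes). At an unadjusted limma p under 0.05 these 5 tests had 1, 1, 1, 0 and 0 of the 10 genes, where 5.44%, 35.3%, 36.5%, 3.37% and 0.964% of all genes had one. The median change of the 10 genes was 0.23 in Ex3, -0.21 in MYC and -0.24 in MYC+Ex3 livers on the log2 scale, beside 0.01, 0.07 and 0.05 for all genes tested. Standard errors were wide: 1.09 for Dbp, 0.758 for Per3, 0.563 for Arntl and 0.268 for Clock, on that scale, which sets the size of change that 5 livers a group could detect.

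Nr1d1, which encodes the REV-ERBα repressor, was the 1 clock gene that passed in this arm, and it was lower in MYC+Ex3 livers than in Ex3 livers. It was at 27.4, 26.2, 40.2, 26.8 and 16.8 RPKM in Ex3 livers and at 11.1, 10.5, 14.6, 8.59 and 20.5 RPKM in MYC+Ex3 livers. Only MYC+Ex3 replicate 5 reached into the Ex3 range, above Ex3 replicate 5. The change was -1.03 ± 0.346 (SE) on the log2(RPKM + 1) scale (limma adjusted p = 0.0395), and 4.7% of all genes were called lower in this comparison, 21.1% in either direction. In wild-type livers Nr1d1 was at 9.55, 12.6, 29.1, 16.7 and 8.08 RPKM and in MYC livers at 5.07, 19.3, 7.28, 4.27 and 8.07 RPKM. It was thus 0.90 ± 0.346 higher in Ex3 and 0.77 lower in MYC than in wild type, neither past adjustment (limma adjusted p = 0.754 and 0.119). The call rested on single libraries: without any 1 of Ex3 replicates 1 to 4 or MYC+Ex3 replicates 1, 2 and 4 the adjusted p was 0.0633 to 0.104 and the change -1.03 to -0.88. It was also lost within the keratin-free livers (-1.23, limma adjusted p = 0.145), within the keratin-bearing ones (-0.89, limma adjusted p = 0.165), with a term for sex (-0.96, limma adjusted p = 0.0518) and with no filter on low values (limma adjusted p = 0.0629).

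The cryptochromes, repressors of the CLOCK and BMAL1 pair, followed with smaller differences. Cry2 was at 7.90, 8.00, 12.6, 10.3 and 11.8 RPKM in Ex3 livers and at 3.81, 3.60, 5.10, 8.89 and 4.55 RPKM in MYC+Ex3 livers, overlapping through MYC+Ex3 replicate 4. The change of -0.88 ± 0.325 just missed the threshold (limma adjusted p = 0.0588), and passed when only these 2 groups were fitted (limma adjusted p = 0.0107). Cry1 was -0.72 ± 0.318 in MYC+Ex3 against wild-type livers and -0.57 ± 0.318 in Ex3 against wild-type livers (limma adjusted p = 0.108 and 0.98). In the authors' deposited table, MYC+Ex3 against wild-type livers had 3 of the 9 clock genes with an adjusted p under 0.05, where 27.8% of all its genes were, and all 3 were lower: Cry1 (log2 fold change -0.88, adjusted p = 0.00924), Npas2 (-1.26, adjusted p = 0.0251) and Cry2 (-0.76, adjusted p = 0.0446). No clock gene was under that value in the authors' deposited table in Ex3 against wild type (0 of 9, where 0.765% of all genes were), in MYC against wild type (0 of 8, 20.5%) or in MYC+Ex3 against MYC livers (0 of 8, 0.276%).

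In the tumour arm the 7 4-OHT livers, of 1 genotype and 1 treatment, also differed widely among themselves. Their highest value exceeded their lowest by 118-fold for Dbp, 80.0-fold for Npas2 and 24.1-fold for Arntl, and by 2.53-fold to 16.9-fold for the other 7 genes. These ratios were wider than over the 20 short-term livers for Dbp, Npas2 and Nr1d1 (9.85-fold) and narrower for the other 7. Their animal numbers start with S14 (replicates 1 to 4) or S15 (replicates 5 to 7), which the labels do not explain. Arntl was at 3.85, 2.38, 3.31 and 1.26 RPKM in the S14 livers and at 0.160, 0.636 and 0.202 RPKM in the S15 livers. Dbp was at 0.152, 0.742, 0.0796 and 4.25 RPKM in the S14 livers and at 8.68, 5.26 and 9.40 RPKM in the S15 livers. Every S15 liver was below every S14 liver for Arntl, and above every S14 liver for Dbp.

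The same separation held for 8 of the 10 genes, where 10.8% of the 11854 genes tested separated the sets. The activators Arntl, Clock and Npas2 were lower in the S15 livers, and Per1, Per2, Per3, Cry2 and Dbp were higher. Npas2 was at 1.5, 0.571, 0.822 and 0.361 RPKM in the S14 livers and at 0.0252, 0.0405 and 0.0187 RPKM in the S15 livers, the last 3 from 3 to 6 reads each. Per2 ran from 0.745 to 1.46 RPKM in the S14 livers and from 6.08 to 7.56 RPKM in the S15 livers. Cry1 and Nr1d1 overlapped. S14 replicate 4 lay nearest to the S15 livers in Arntl, Dbp and Per3 (2.53 RPKM, beside 5.70 to 7.16 RPKM). Since the livers fell into sets of 4 and 3, no correlation of Arntl with the other genes is given for them.

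The 6 tumours had a narrow range of Arntl, and a range of Clock close to that of the S15 livers. Arntl in all 6 lay above the S15 livers and near the lowest S14 liver, and Clock overlapped both sets. Arntl was at 1.36, 1.23 and 1.60 RPKM in MYC tumours and at 1.26, 1.41 and 1.60 RPKM in MYC+Ex3 tumours, its highest value 1.30-fold and 1.26-fold above its lowest. This ratio was 3.06-fold within the S14 and 3.98-fold within the S15 livers, and 24.1-fold over both sets of 4-OHT livers together. Clock was at 5.18 to 6.55 RPKM over the 6 tumours, beside 6.54 to 10.9 RPKM in the S14 and 4.21 to 5.62 RPKM in the S15 livers. In that order its ranges were 1.26-fold, 1.67-fold and 1.33-fold. Dbp was at 2.67, 1.69 and 0.452 RPKM in MYC tumours and at 0.295, 0.399 and 0.289 RPKM in MYC+Ex3 tumours, where 15 to 20 reads stood behind each value. Npas2 was close to the detection limit, at 0.0100, 0.0370 and 0.0648 RPKM in MYC tumours and at 0, 0.0240 and 0.0155 RPKM in MYC+Ex3 tumours. The 0 allows a level of up to 0.0197 RPKM (3 reads, counting error only).

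**Figure D4:**
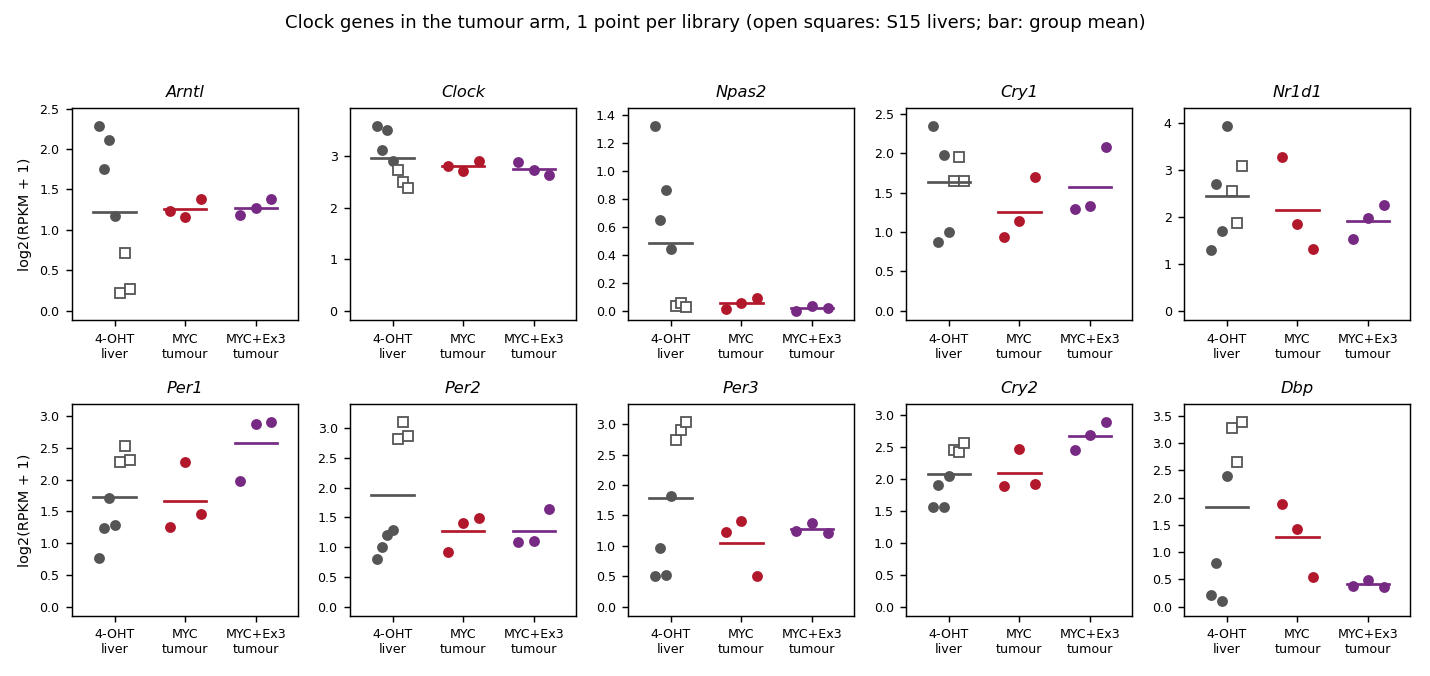
Level of each clock gene as log2(RPKM + 1), vertical axis, in the 7 4-OHT livers and the 6 tumours by group, horizontal axis. Each point is 1 library, open squares are the S15 livers and bars are group means. The S15 livers lie above all 6 tumours for Dbp, Per2 and Per3 and below them for Arntl, while the S14 livers overlap the tumours for these genes. For Npas2 the S14 livers lie above all 6 tumours.

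Compared with all 7 4-OHT livers, few clock genes passed a test in the tumours although much of the transcriptome did. In this arm the residual standard deviation of log2(RPKM + 1) placed the 9 genes tested at the 86.8th to 99.8th percentile of all genes (median 97.8). That spread limits the size of change these tests could detect. Of the 9 clock genes tested (Npas2 was below the filter on low values), 0 passed in MYC tumours, where 49.8% of all 11854 genes passed, and 0 had an unadjusted limma p under 0.05, where 56.0% of all genes did. All 9 overlapped with the livers in both kinds of tumour, where 35.2% of all genes in MYC and 56.1% in MYC+Ex3 tumours did not. In MYC+Ex3 tumours 1 of 9 passed, Cry2, which was higher, where 60.6% of all genes passed and 42.3% were called higher. Cry2, which encodes a repressor of the CLOCK and BMAL1 pair, was at 4.46, 5.44 and 6.35 RPKM in MYC+Ex3 tumours and at 1.93, 2.73, 1.94, 3.11, 4.45, 4.34 and 4.88 RPKM in the 4-OHT livers. The MYC+Ex3 tumours overlapped only the S15 livers. The change was 0.60 ± 0.227 (limma adjusted p = 0.0321), while the median gene changed by 0.23, and by 0.19 in MYC tumours. When each library was rescaled by its median ratio the change of Cry2 was 0.42 and did not pass (limma adjusted p = 0.166). Its call was also lost without any 1 of MYC+Ex3 tumours 2 and 3 and 4-OHT livers 1, 2 and 3 (0.50 to 0.60, limma adjusted p = 0.0512 to 0.135).

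Per1 and Dbp came next in MYC+Ex3 tumours. Per1 was at 2.95, 6.32 and 6.47 RPKM there, at 1.37, 3.87 and 1.76 RPKM in MYC tumours and at 0.699 to 4.79 RPKM (median 2.27) in the 4-OHT livers. Its change against the livers, 0.85 ± 0.364, missed the threshold (limma adjusted p = 0.0547) and passed without any 1 of MYC tumours 1 and 2, MYC+Ex3 tumour 1 and the 3 S15 livers (0.85 to 1.16, limma adjusted p = 0.0264 to 0.0486). The change of Dbp was -1.42 ± 0.666 (limma adjusted p = 0.0783), and it passed without 4-OHT liver 1 or 3 (-1.71 and -1.69). The median change of the 9 genes was -0.30 in MYC and -0.21 in MYC+Ex3 tumours. In the authors' deposited table, Npas2 was under an adjusted p of 0.05 in both comparisons with the 4-OHT livers (log2 fold change -2.10, adjusted p = 0.00537, in MYC tumours and -2.96, adjusted p = 0.00166, in MYC+Ex3 tumours), and Dbp in MYC+Ex3 tumours (-2.54, adjusted p = 0.00555). These were 1 of 10 clock genes in MYC and 2 of 10 in MYC+Ex3 tumours, where 44.5% and 60.7% of all genes in the authors' deposited table were under that value. With no filter on low values limma gave Npas2 -0.43 and -0.47 (adjusted p = 0.188 and 0.138).

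Which clock genes differed between tumour and liver, and in which direction, differed with the livers used. Against the 4 S14 livers alone, Clock was lower in MYC tumours (-0.47 ± 0.169, limma adjusted p = 0.0478; 37.7% of all 11742 genes passed, 26.8% higher and 10.9% lower) and in MYC+Ex3 tumours (-0.53 ± 0.169, limma adjusted p = 0.0207; 51.5% passed, 35.5% higher and 16.0% lower). In the same comparison Cry2 (0.91, limma adjusted p = 0.00218) and Per1 (1.34, limma adjusted p = 0.00387) were higher in MYC+Ex3 tumours. Against the 3 S15 livers alone the called genes were others, 4 of 9 in each kind of tumour, where 36.7% and 50.3% of all 11620 genes passed. Of all genes 28.9% were called higher and 7.82% lower in MYC tumours, and 37.5% and 12.8% in MYC+Ex3 tumours. Arntl was then higher, by 0.86 ± 0.172 in MYC and 0.88 ± 0.172 in MYC+Ex3 tumours (limma adjusted p = 0.00435 and 0.0023). Per2 (-1.66 and -1.65), Per3 (-1.84 and -1.62) and Dbp (-1.82 and -2.69) were lower (limma adjusted p of 0.00209 or less). Against the S14 livers the difference of Arntl had the opposite sign, at -0.57 and -0.55 (limma adjusted p = 0.0652 and 0.0587). The 2 contrasts with each set share their livers, and those with the 2 sets share their tumours.

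Between the kinds of tumour, Dbp was the 1 clock gene whose values did not overlap, lower in all 3 MYC+Ex3 tumours than in all 3 MYC tumours. The groups of 7.71% of all genes separated in that direction, and 16.3% in either. The change, -0.87 ± 0.788, did not pass (limma adjusted p = 0.629), and 0 of 9 clock genes did, where 4.13% of all genes passed. At an unadjusted limma p under 0.05 there was 1 of 9, Cry2 (0.58 ± 0.268, limma adjusted p = 0.274), where 17.6% of all genes had one. In the authors' deposited table Dbp had a log2 fold change of -1.38 (adjusted p = 0.0351) in this comparison, 1 of 9 clock genes where 4.49% of all genes were under 0.05. Markers of erythroid cells summed to 64.0 to 79.1 RPKM in MYC+Ex3 tumours and 10.4 to 61.6 RPKM in MYC tumours (4 of 5 in the table), and those of macrophages to 47.9 to 59.1 and 26.6 to 109 RPKM (7 of 7), and their part in these differences was not tested.

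The wider clock machinery was examined with 23 further genes, of which 22 were tested in the short-term livers and 20 in the tumour arm. In MYC livers 2 were higher and 2 lower than in wild type, where 16.9% of all genes were called higher and 5.36% lower. Rora, a receptor that activates Arntl, was at 23.8 to 28.8 RPKM in wild-type livers and at 9.97 to 18.9 RPKM in MYC livers, with no overlap (-0.77 ± 0.142, limma adjusted p = 0.000545). Arntl2, the paralog of Arntl, was at 0.516 to 1.57 RPKM in wild-type livers and at 1.89 to 5.06 RPKM in MYC livers, again with no overlap (1.18 ± 0.225, limma adjusted p = 0.000726). Timeless, which acts in DNA replication as well as being linked to the clock, was higher by 0.74 (limma adjusted p = 0.031). Fbxl21, an F-box protein that binds cryptochromes, was lower by 0.84 ± 0.263 (limma adjusted p = 0.0269). The proliferation genes Mki67, Top2a, Ccnb1, Cdk1 and Bub1 moved with these, summing to 93.9 to 257 RPKM in MYC and 2.63 to 11.1 RPKM in wild-type livers, and their part was not tested. The calls of Timeless and Fbxl21 were lost in the keratin-free livers (0.60 and -0.65, limma adjusted p = 0.116 and 0.089), with a term for title numbers (0.53 and -0.67, limma adjusted p = 0.217 and 0.203) and without any 1 of 4 livers each (0.64 to 0.70 and -0.79 to -0.60).

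MYC+Ex3 livers showed the same directions for 3 of these genes. Against wild type, Arntl2 (1.08 ± 0.225, limma adjusted p = 0.00134) and Timeless (0.69 ± 0.239, limma adjusted p = 0.0415) were higher, 2 of 22 where 17.9% of all genes were called higher. Rora was the 1 gene lower (-0.69 ± 0.142, limma adjusted p = 0.00119), where 6.18% of all genes were called lower. Against Ex3 livers, Arntl2 was higher by 1.08 and Rora lower by 0.63 (limma adjusted p = 0.00164 and 0.00325), each 1 of 22, where 16.4% of all genes were called higher and 4.7% lower. Within the keratin-bearing livers alone, Arntl2 missed the threshold in both comparisons (limma adjusted p = 0.0811 and 0.075), as did Rora against Ex3 (limma adjusted p = 0.051) and Timeless against wild type (limma adjusted p = 0.301). The call of Timeless was also lost with no filter, with a term for sex or title numbers, and with only these groups fitted (limma adjusted p = 0.0678 to 0.137). It was lost too without any 1 of 6 livers (0.53 to 0.71, limma adjusted p = 0.0552 to 0.134).

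**Figure D5:**
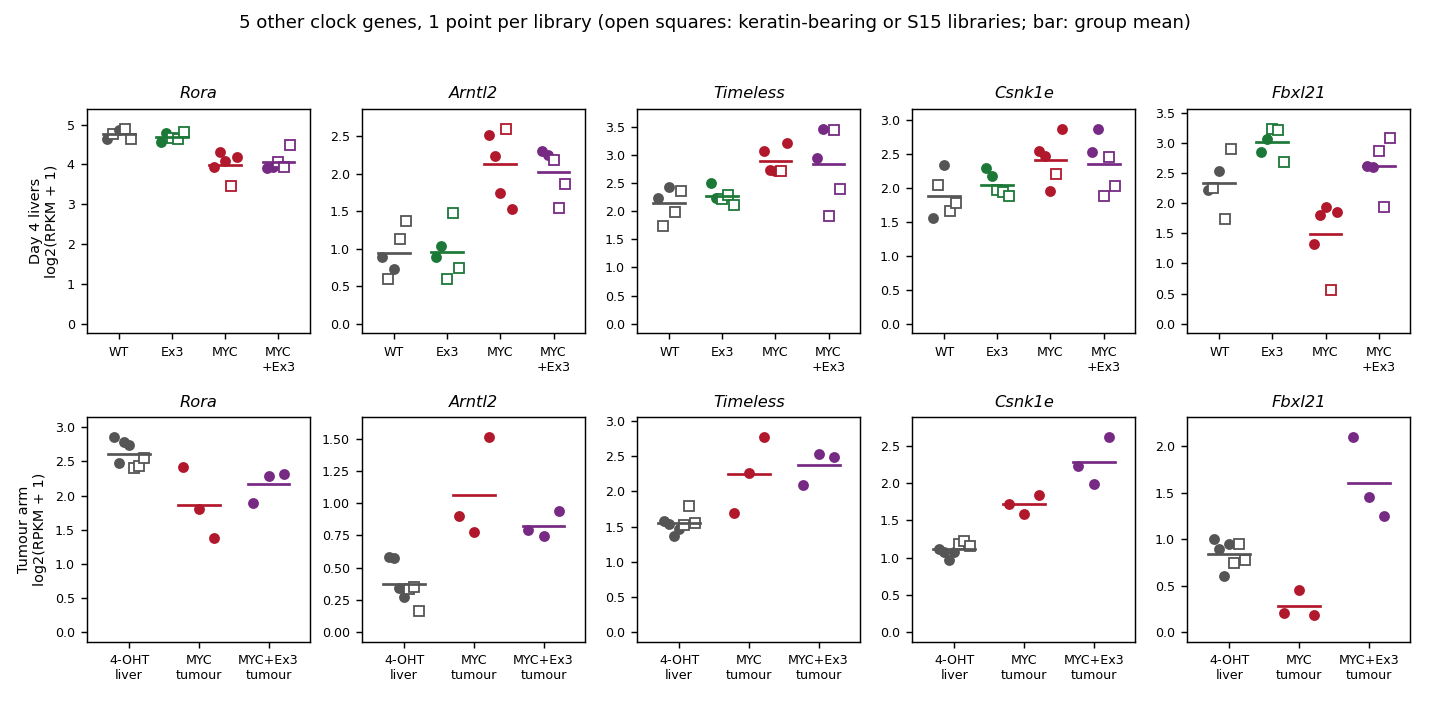
Level of 5 further clock genes as log2(RPKM + 1), vertical axis, by group, horizontal axis; the upper row shows the short-term livers and the lower row the tumour arm. Each point is 1 library, bars are group means and open squares are keratin-bearing (upper) or S15 (lower) libraries; Rora and Arntl2 separate MYC from wild-type livers, and Fbxl21 separates the 2 kinds of tumour.

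In tumours the kinase and F-box genes that set the stability of PER and CRY proteins stood out. Csnk1e, which encodes casein kinase 1ε, a kinase of the PER proteins, was at 0.961 to 1.33 RPKM in the 4-OHT livers, at 2.0 to 2.58 RPKM in MYC tumours and at 2.96 to 5.14 RPKM in MYC+Ex3 tumours, with no overlap between any of the 3 groups. Its change was 0.60 ± 0.124 in MYC and 1.17 ± 0.124 in MYC+Ex3 tumours (limma adjusted p = 0.00131 and 3.47e-06). Fbxl21 went in opposite directions: at 0.523 to 0.996 RPKM in the livers, it was at 0.138 to 0.366 RPKM in MYC tumours (-0.56 ± 0.162, limma adjusted p = 0.0104) and at 1.37 to 3.29 RPKM in MYC+Ex3 tumours (0.76 ± 0.162, limma adjusted p = 0.00108). No liver or MYC tumour reached the filter's RPKM of 1, so Fbxl21 was tested only through the MYC+Ex3 tumours, where it was high. Its values are therefore a description, and its p-values give no separate support. Rora was lower in MYC tumours (-0.74 ± 0.187, limma adjusted p = 0.00463). In MYC+Ex3 tumours, at 2.69 to 3.97 RPKM, it lay below all 7 livers (4.29 to 6.25 RPKM), with a change of -0.44 ± 0.187 that just missed the threshold (limma adjusted p = 0.0518), while in the authors' deposited table it was -0.76 (adjusted p = 2.21e-06). The difference of Rora between the kinds of tumour did not pass (0.30 ± 0.221, limma adjusted p = 0.529). Timeless was higher in MYC and in MYC+Ex3 tumours (0.70 and 0.83, limma adjusted p = 0.00566 and 0.00121). Wee1, a cell cycle kinase that CLOCK and BMAL1 can switch on, was higher in MYC+Ex3 tumours (0.94 ± 0.342, limma adjusted p = 0.028), but not against the S15 livers alone (0.20, limma adjusted p = 0.404). Its call was also lost with median ratio rescaling (0.76, limma adjusted p = 0.0866) and with no filter on low values (limma adjusted p = 0.0539). It was lost too without any 1 of 2 libraries (0.89 to 0.90, limma adjusted p = 0.0822 to 0.0840).

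By count, 4 of 20 further clock genes were higher and 3 lower in MYC tumours, where 36.2% of all genes were called higher and 13.7% lower. In MYC+Ex3 tumours 8 of 20 were higher and 0 lower, where 42.3% were called higher and 18.4% lower. Between the tumours, Fbxl21 (1.32 ± 0.192, limma adjusted p = 0.00113) and Csnk1e (0.56 ± 0.147, limma adjusted p = 0.0467) were higher in MYC+Ex3, 2 of 20 where 2.02% of all genes were, and 0 were lower, where 2.1% were. Fbxl21 entered all these counts only through the MYC+Ex3 tumours, where it was high. The call of Csnk1e between the tumours was lost without any 1 of 11 of the 13 libraries (0.40 to 0.59, limma adjusted p = 0.0567 to 0.188), and both were lost when only the 6 tumours were fitted (limma adjusted p = 0.0829 for Fbxl21 and 0.367 for Csnk1e). Against the S15 livers alone, Rora, Timeless and Fbxl21 missed the threshold in MYC tumours, with changes of -0.60, 0.62 and -0.54 (limma adjusted p = 0.0739, 0.0755 and 0.0761).

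The genes whose levels tracked the clock most closely were sought among all genes with a mean of at least 5 RPKM, by Pearson r of log2(RPKM + 1) after removal of group means. These are descriptions over libraries that fall into separate sets, as above. Over the 20 short-term livers and 9112 genes, Dbp was followed most closely by Tef, its D-box relative (r = 0.98), and by Per3 (r = 0.96), then Fam76a (0.91), Gys2 (liver glycogen synthase, 0.91) and Nr1d2 (REV-ERBβ, 0.89). It ran most against Chka (choline kinase α, -0.93), Rchy1 (-0.90), Desi2 (-0.86), Lrfn3 (-0.85) and Asb13 (-0.85). For Arntl those with the highest r included Lrfn3 (0.91), Slc30a10 (a manganese transporter, 0.91), Mreg (0.90) and Leo1 (0.89). The lowest were Efhd2 (-0.94), Coq10b (-0.90), Nr1d2 (-0.90), Slc37a4 (the glucose 6-phosphate transporter, -0.89) and Nampt (an enzyme of NAD synthesis, -0.87).

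Over the 13 libraries of the tumour arm and 5251 genes, Tef (0.93) and Nr1d2 (0.92) followed Dbp most closely, before Epha1 (0.86), Atp1b1 (0.82) and Klf13 (0.80). Clock ran against it (-0.91), as did Ahctf1 (-0.94), Leprotl1 (-0.90), Cdkn1a (-0.88) and Aurka (-0.86). Clock was among the 5 genes most like Arntl (0.91), with Lgalsl (0.93), Pnrc1 (0.92), St5 (0.92) and Cdkn1a (0.91), and the lowest were Nr1d2 (-0.87), Tef (-0.86), Atp1b1 (-0.84), Klf13 (-0.84) and Epha1 (-0.79). Tef and Nr1d2 were thus among the 5 genes closest to Dbp in both arms.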

How the data were processed

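Total RNA of 33 mouse livers and liver tumours was sequenced from stranded libraries, per the labels' protocols. Per the submitters' processing notes, TopHat2 2.0.8, SAMtools, featureCounts 1.4.5-p1 and DESeq2 were used, with genome mm9; which step used which setting is not given in the sources used here. The authors deposited RPKM for each library, and for their own comparisons log2 fold changes and adjusted p-values, which are quoted as theirs. RPKM came out as whole reads (within 0.0001) for all 20485 genes with a value; 1186 further genes were at 0 throughout. The totals behind RPKM differ between the arms, so the arms were fitted apart. Counting intervals cover counting error only, and depth was 3.75 to 9.82 M reads in genes per library.

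From the deposited RPKM, log2(RPKM + 1) was computed and tested with limma 3.58.1 in R 4.3.3 (empirical Bayes with trend, two-sided, Benjamini-Hochberg over all genes of a comparison, with a threshold of 0.05). Genes with an RPKM of 1 or more in fewer than 3 libraries of a fit were left out. Fold changes on this scale understate those of low genes. The 20 short-term livers were fitted together, as were the 13 tumour-arm libraries, in 9 comparisons. Tests across all genes were tested on simulated data. Groups came from titles, genotypes and treatments, and replicates follow the order of the records. Each is a separate animal number in the titles. Correlations used permutations of the libraries, within groups where group means were removed.

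The 10 genes and all lists were chosen with earlier results of these data known. All 10 are named, with up to 4 called genes of 23 further clock genes and up to 2 called genes of 8 glucocorticoid-induced genes per comparison, those of largest change; the 5 genes of highest and lowest r with Arntl and Dbp are named, without gene models, small RNAs or pseudogenes, except 1 that is not reported here. Marker lists were checked for hepatocytes, macrophages, endothelial cells, stellate cells and fibroblasts, cholangiocytes, lymphocytes, keratinised epithelium, erythroid cells and proliferation. Alternatives were a pseudocount of 0.1, no filter, rescaling by the median ratio, terms for sex, keratins and title numbers, subsets by keratins or title numbers, only the groups compared, and leaving out each library. The correlations within livers of low or high Dbp, and without the livers of the most frequent title number, were added after seeing the data. Promoter windows are from RefSeq (GRCm38.p6).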

Additional observations from a re-analysis of the deposited data

Results flagged for a closer look

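In 12 of 50 groups of 5 or 7 livers, tested gene by gene for the 10 clock genes, the highest or lowest liver stood apart from the others by Dixon's criterion. For normally distributed values chance exceeds it in about 1 of 20 groups. It was applied to RPKM without logs, where most of the flagged values were high ones, so that rate cannot be set against the 12. The 10 genes vary together, so these are not independent. Replicate 2 of the wild-type livers was highest in Per1 (11.4 RPKM, next 1.68), Per2 (18.5, next 4.14) and Per3 (28.4, next 5.77). Replicate 5 of the Ex3 livers was highest in Per1 (10.1 RPKM, next 3.31) and Per2 (8.75, next 5.06), and replicate 5 of the MYC livers in Per1 (10.6, next 2.04) and Per2 (20, next 4.75). Replicate 4 of the MYC+Ex3 livers was highest in Per1 (4.89 RPKM, next 3.0), Per2 (5.95, next 3.06) and Cry2 (8.89, next 5.10) and lowest in Clock (26.3, next 40.9). Replicate 2 of the MYC livers was highest in Nr1d1 (19.3 RPKM, next 8.07). The first 4 of these livers, 1 in each group, were also the lowest of their group in Arntl and the highest in Dbp.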

How the results depend on the processing

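The count of clock genes called was 0 in Ex3 against wild-type, in MYC+Ex3 against MYC livers, in the interaction and in MYC+Ex3 against MYC tumours under every alternative run. For MYC against wild-type livers it ranged from 0 to 1 over the leave-one-out fits, with 1 (Nr1d1, -1.07, limma adjusted p = 0.0181) without MYC replicate 2. For MYC+Ex3 against wild-type livers a term for title numbers gave 1 (Npas2, -1.11, limma adjusted p = 0.00681). For MYC+Ex3 against Ex3 livers, where 1 was called, no filter, a sex term, the keratin-free livers and the keratin-bearing livers each gave 0, rescaling and fitting only these groups each gave 2 (with Cry2), and leaving out 1 library gave 0 to 2: 0 without Ex3 replicates 1, 2, 3 or 4 or MYC+Ex3 replicates 1 or 2, and 2 without MYC replicates 4 or 5 or wild-type replicate 2. For MYC tumours, where 0 were called, the S14 livers alone gave 1 and the S15 livers alone 4. For MYC+Ex3 tumours, where 1 was called, no filter and rescaling gave 0, only the groups compared 2, the S14 livers 3 and the S15 livers 4, and leaving out 1 library gave 0 to 2: 0 without MYC+Ex3 tumours 2 or 3 or 4-OHT liver 2, and 2 without MYC tumours 1 or 2, MYC+Ex3 tumour 1 or 4-OHT livers 5, 6 or 7. The cause of these shifts was not tested. Over all 20 short-term livers, 7 of the 9 relations with Arntl passed by Pearson r (adjusted permutation p), and 7 passed without each liver in turn. The same 7 passed without the livers of the most frequent title number, and all of them but Npas2 passed in the keratin-bearing livers. In the keratin-free livers 3 passed, in the high-Dbp livers 3 and in the low-Dbp livers 1. Each adjustment included the 9 relations over the 4-OHT livers, so these counts are no strict test of a set alone. Those of the keratin-free and high-Dbp livers rest on that inclusion. In the low-Dbp livers the r of Clock was -0.11, and those of Per1, Per2, Per3, Cry2 and Dbp were 0.33, 0.33, 0.0149, 0.61 and 0.42, opposite in sign to those over all livers. No paired analysis was possible because the labels give each animal its own number and the groups share none. Depth limits Npas2 (0 to 10 reads in tumours) and Dbp (15 to 20 reads in MYC+Ex3 tumours) the most, and samples per group limit all comparisons.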

Other observations

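Glucocorticoids can set the phase of the liver clock, and 8 genes they induce were examined in the same fits. In MYC livers 0 were higher and 2 lower than in wild type (16.9% and 5.36% of all genes): Pck1, an enzyme of gluconeogenesis (-0.74, limma adjusted p = 0.0394), and Tat, an enzyme of tyrosine breakdown (-0.57, limma adjusted p = 0.0418). Both were also lower in MYC+Ex3 than in Ex3 livers (-0.87 and -0.63, limma adjusted p = 0.0167 and 0.0268), 2 of 8 where 4.7% of all genes were called lower. Here Tat was lost in the keratin-bearing livers (-0.41, limma adjusted p = 0.139) and without any 1 of 3 livers (-0.55 to -0.51), and Pck1 without MYC+Ex3 replicate 2 (-0.75, limma adjusted p = 0.0571). In MYC tumours 1 was higher and 1 lower (36.2% and 13.7% of all genes), Mt1 (0.70, limma adjusted p = 0.0165) and Tsc22d3 (-0.97, limma adjusted p = 0.00733). This call of Mt1 was lost with median ratio rescaling (0.49, limma adjusted p = 0.0797) and against the S15 livers alone (0.51, limma adjusted p = 0.177). It was also lost without any 1 of 2 libraries (0.46 to 0.69), and that of Tsc22d3 without 1 library (-0.61, limma adjusted p = 0.0666). In MYC+Ex3 tumours 1 was higher and 3 were lower (42.3% and 18.4%), with Pck1 (-1.72, limma adjusted p = 0.00446) and Tsc22d3 (-1.26, limma adjusted p = 0.000844) changed the most. The calls in MYC livers were lost in the keratin-free livers (-0.20 and -0.25), without any 1 of 7 livers for Pck1 and without any 1 of 8 for Tat.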
